A study of Mus musculus with 84 samples.

Results

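The genes described here drive or mark cell division. The list held 38 names, which stand for 37 genes because Cdk1 and its older name Cdc2a denote the same gene. They were found by an exact match to the gene name printed on the array, which gave 36 genes with 57 probes, of 41174 probes and 27845 gene names in all. For the 16 genes with more than 1 probe, the probe with the brightest mean signal stands for the gene. The remaining gene, Cdc45, is carried under its older name Cdc45l and is given in a sentence of its own. The 36 genes comprised 6 G1 cyclins and inhibitors of cyclin-dependent kinases (CDKs), 2 growth arrest and DNA damage genes, 11 DNA replication genes and 17 genes of G2 and mitosis.

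Male diabetic db/db mice of the strain labelled BKS Cg-m+/+ Leprdb/J, which lack the long form of the leptin receptor and become obese and hyperglycaemic, were 8 weeks old when obtained according to the methods. They received rosiglitazone (RSG), a thiazolidinedione ligand of the nuclear receptor PPARγ, or a compound labelled only as S, by mouth for 18 days at 28, 84 or 280 µmol/kg. RNA of inguinal adipose tissue (IAT) and liver was taken from 6 mice in each of 12 groups of tissue, compound and dose. The RNA of a mouse was compared on 2 arrays, with exchanged dyes, to that of pooled control db/db mice from the matching tissue. The methods describe the pool for the RSG groups as 6 control db/db mice. Every mouse in the comparison, the pool included, therefore carries the receptor mutation. The pool is 1 sample, so the spread between control mice is not part of any test against it. The labels call the samples biological replicates and give no cage or litter. The methods state that liver and IAT were taken from each mouse, so the tissues of a group share animals, but the labels do not say which liver and IAT samples come from the same mouse.

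Cyclins bind CDKs and switch on the steps of cell division in order. D-type and E-type cyclins carry cells from G1 into S phase through the release of E2F transcription factors, which turn on the replication genes, and cyclin A and cyclin B with Cdk1 carry them into mitosis. Most adult hepatocytes rest outside the cycle and re-enter it after loss of liver tissue or under growth stimuli, and inguinal fat holds dividing precursor, endothelial and immune cells beside mature adipocytes that do not divide. Because whole tissue was measured, fewer cells of a type and less RNA per cell cannot be told apart.

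Promoter windows from 250 bases before to 50 bases after the transcription start (RefSeq, GRCm38.p6) were found for 30 of the 36 genes, as 34 windows. No window was found for Ccnd1, Ccnd2, Ccne2, Ccna2, Aurkb and Mcm4. On both strands, 3 motifs known from cell cycle promoters were searched: an E2F motif (TTTCCCGC, TTTCGCGC, TTTGCCGC or TTTGGCGC), the cell cycle genes homology region or CHR (TTTGAA or TTCGAA) and the CCAAT box (CCAAT). Of all 32851 windows, 2.26% held an E2F motif, 19.2% a CHR and 37.4% a CCAAT box. Of the 34 windows of the cell cycle genes, 6 (17.6%) held an E2F motif, 15 (44.1%) a CHR and 26 (76.5%) a CCAAT box. The 11 replication windows had E2F motifs in 5 (45.5%) and a CHR in 2 (18.2%), whereas the 16 windows of G2 and mitosis genes had E2F motifs in 1 (6.25%) and a CHR in 13 (81.2%). A match to these letters is a description and not evidence of a bound site.

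Windows are shown for 5 genes whose expression is described below and which differ in these motifs. The capitals mark the motifs, read on either strand, and overlapping E2F motifs form 1 longer run. Mcm6 (chr1:128359656-128359955, minus strand) held 3 E2F motifs and 2 CCAAT boxes, and Mcm5 (chr8:75109259-75109558, plus strand) held 2 and 3. Cdk1 (chr10:69352863-69353162, minus strand) held 1 E2F motif, 2 CHRs and 3 CCAAT boxes. Top2a (chr11:99024140-99024439, minus strand) held 4 CHRs and 6 CCAAT boxes, and Ccnb1 (chr13:100786437-100786736, minus strand) held 2 CCAAT boxes alone.
Mcm6: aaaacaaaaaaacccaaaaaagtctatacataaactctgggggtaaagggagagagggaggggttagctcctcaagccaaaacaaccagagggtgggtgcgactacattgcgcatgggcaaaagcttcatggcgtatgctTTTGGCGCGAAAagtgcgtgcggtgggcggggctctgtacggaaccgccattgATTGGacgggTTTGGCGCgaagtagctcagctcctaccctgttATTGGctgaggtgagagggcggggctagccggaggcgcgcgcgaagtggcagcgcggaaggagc
Mcm5: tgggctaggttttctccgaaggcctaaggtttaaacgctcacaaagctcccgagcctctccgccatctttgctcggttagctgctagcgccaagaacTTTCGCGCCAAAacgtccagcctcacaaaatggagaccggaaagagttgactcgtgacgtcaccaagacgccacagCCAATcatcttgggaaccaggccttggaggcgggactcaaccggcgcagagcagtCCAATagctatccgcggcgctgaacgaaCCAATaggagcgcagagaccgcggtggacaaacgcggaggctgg
Cdk1: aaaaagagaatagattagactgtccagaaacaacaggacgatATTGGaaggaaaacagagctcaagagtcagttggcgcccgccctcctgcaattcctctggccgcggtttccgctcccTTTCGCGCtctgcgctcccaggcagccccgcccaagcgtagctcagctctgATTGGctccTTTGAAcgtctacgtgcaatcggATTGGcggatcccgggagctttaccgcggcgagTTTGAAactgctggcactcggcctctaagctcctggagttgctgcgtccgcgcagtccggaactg
Top2a: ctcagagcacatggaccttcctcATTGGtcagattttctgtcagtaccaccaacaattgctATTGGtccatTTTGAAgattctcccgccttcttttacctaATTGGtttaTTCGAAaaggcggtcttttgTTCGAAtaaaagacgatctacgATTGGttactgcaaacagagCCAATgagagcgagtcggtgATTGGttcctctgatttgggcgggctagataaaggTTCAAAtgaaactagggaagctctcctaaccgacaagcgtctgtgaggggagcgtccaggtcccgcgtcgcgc
Ccnb1: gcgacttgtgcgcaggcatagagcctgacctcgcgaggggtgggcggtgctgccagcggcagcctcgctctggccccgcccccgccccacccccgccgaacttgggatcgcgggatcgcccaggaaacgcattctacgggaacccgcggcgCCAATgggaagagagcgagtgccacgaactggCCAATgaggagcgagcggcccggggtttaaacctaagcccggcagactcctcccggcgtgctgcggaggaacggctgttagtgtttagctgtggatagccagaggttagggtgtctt

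All values below are log2 ratios of a treated mouse to the pool of its tissue unless another scale is named. Hepatocyte markers were above background for 15 of 15 genes in liver and adipocyte markers for 13 of 13 in IAT. In the treated channel, 10 of the 15 hepatocyte markers were also detected in IAT and 9 of the 13 adipocyte markers in liver. Detection alone therefore separates the tissues poorly. Probes tested numbered 26023 in liver and 31428 in IAT, and all 36 genes were among them in both tissues. In IAT, all 36 genes were well above background on every array in both channels. In liver, 32 genes reached this on at least 50% of arrays in the treated channel and 30 in the pool channel, and the 6 dim in the pool were Ccnb1, Ccne2, Cdc6, Bub1, Aurkb and Kif11. The liver of RSG 280 replicate 2 stood apart. Its median over the 36 genes was -0.80, against 0.47 for its group, and its correlation with its group over all probes was 0.45. In IAT, RSG 28 replicate 5 (0.23) and RSG 280 replicate 2 (0.49) stood apart in this correlation. Their medians over the 36 genes were 0.02 and -0.36, in groups ranging from -0.25 to 0.36 and from -0.36 to 0.01.

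In the liver more of the cell cycle genes rose than fell in each of the 6 groups, from 12 of 36 at RSG 280 to 34 of 36 at S 280. A gene is said to have risen or fallen where its adjusted p was under 0.05 (limma, Benjamini-Hochberg over all tested probes of the tissue). At 28 µmol/kg RSG 29 genes rose and 2 fell, with a median of 0.74 (all probes: 24.8% higher, 33.7% lower). At 84 µmol/kg 14 rose and 1 fell, with a median of 0.44 (all probes: 23.9% higher, 32.6% lower). At 280 µmol/kg 12 rose and 2 fell, with a median of 0.25 (all probes: 21.4% higher, 29.5% lower). Under S, 30 rose and 2 fell at 28 µmol/kg, with a median of 0.73 (all probes: 23% higher, 28.3% lower), and 31 rose and 2 fell at 84 µmol/kg, with a median of 0.72 (all probes: 23.7% higher, 30.6% lower). At S 280, 34 rose and 1, Gadd45a, fell (all probes: 27.9% higher, 37.9% lower), with a median of 1.82 against -0.05 over all probes.

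By role, 8 of the 11 replication genes rose at RSG 280, with a median of 0.56, and none of the 17 G2 and mitosis genes passed the test, with a median of 0.21. At S 280 all 11 replication genes rose, with a median of 2.17, as did all 17 G2 and mitosis genes, with a median of 1.67. Of the 6 G1 genes 3 rose and 1 fell at RSG 280, and 5 rose at S 280, where Cdkn2c was not called. Bub1 and Kif11 passed the filter on dim probes in the S 280 group alone, and Cdc6 and Ccne2 in S groups alone, so that these 4 genes were tested because of the groups in which they were high. Over the 30 genes that were not dim in the pool, none of which is among these 4, 11 rose and 2 fell at RSG 280 and 28 rose and 1 fell at S 280. They included 10 replication genes, of which 7 rose at RSG 280 and all at S 280, and 13 G2 and mitosis genes, of which none passed the test at RSG 280 and all rose at S 280. The RSG 280 counts depended on single mice. Without replicate 2, 22 genes rose, 2 fell and the median was 0.53. The 10 genes gained were Mki67, Top2a, Ccna2, Cdk1, Bub1, Aurka, Aurkb, Plk1, Mcm7 and Prc1. Without replicate 5, 9 genes were called at RSG 280, and without replicate 4, 20 were called at S 84, where 33 were called with it.

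**Figure D1:**
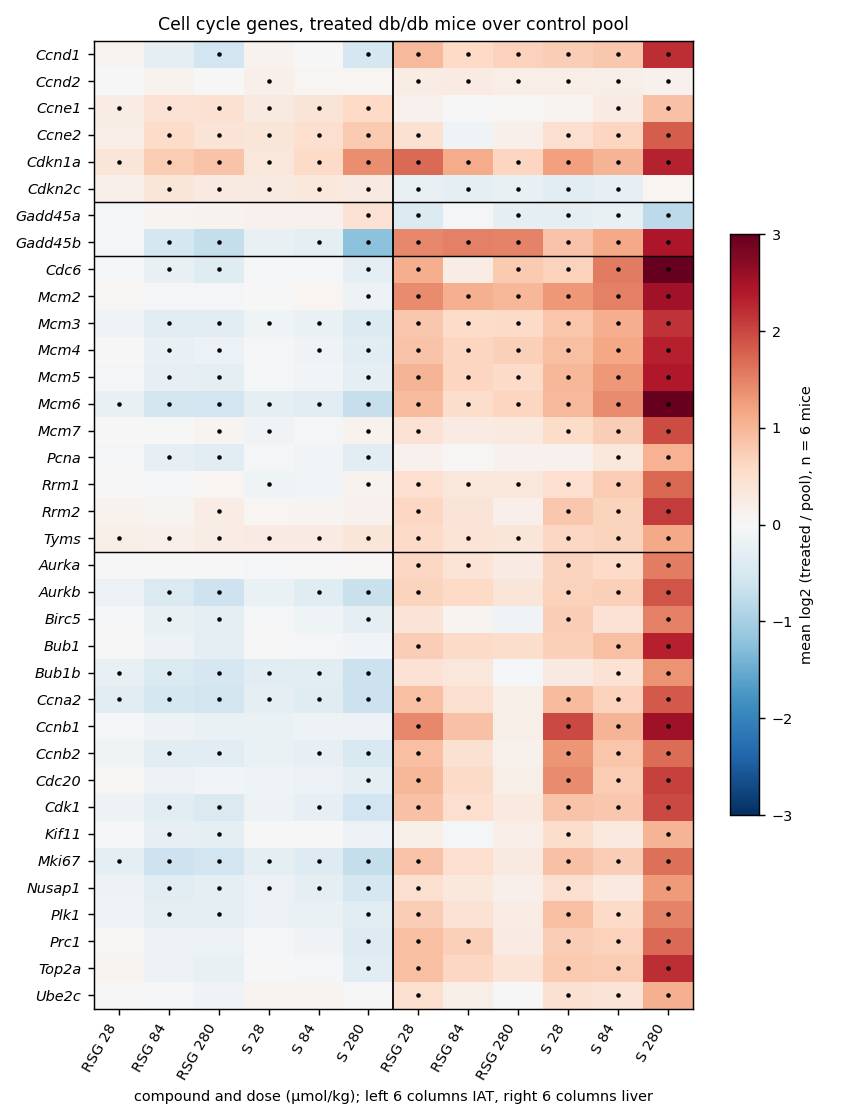
Mean log2 ratio of treated mice to the control pool for 36 cell cycle genes (rows, grouped by role with lines between) in 12 groups of 6 mice (columns, IAT left and liver right, dose in µmol/kg). Dots mark an adjusted p under 0.05. The deepest red is in the S 280 liver column, where Mcm6 and Cdc6 average 3.01, and the IAT columns are mostly pale blue except for Ccne1, Ccne2, Cdkn1a, Cdkn2c and Tyms.

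The genes of the replicative helicase, Mcm2 to Mcm7, which unwinds DNA at the fork, were among the highest. Mcm6 had -0.48 in the lowest, 0.59 in the median and 1.38 in the highest of the 6 livers at RSG 280, with a mean of 0.64 ± 0.69 (SD, n = 6), a 1.56-fold increase over the pool (limma, adjusted p = 0.0107). At S 280 it had 1.99, 3.16 and 3.63, with a mean of 3.01 ± 0.56 (8.08-fold, adjusted p = 3.36e-14). All RSG livers lay below all S livers. Mcm5 had -1.05, 0.73 and 1.27 at RSG 280, where the low value belonged to replicate 2, and 1.78, 2.46 and 2.69 at S 280. Mcm2 had -0.24, 1.14 and 1.42 at RSG 280 (1.98-fold) and 1.89, 2.54 and 2.91 at S 280 (5.72-fold). It was already at 1.41 at RSG 28, above the other 5 Mcm genes of that group. Mcm4 had -0.19, 0.76 and 1.17 at RSG 280 and 1.66, 2.31 and 2.90 at S 280. Mcm3 had -0.46, 0.63 and 1.06 at RSG 280 and 1.52, 2.21 and 2.58 at S 280. These 5 genes rose in all 6 liver groups. Mcm7, which rose in 4, had -0.28, 0.27 and 0.72 at RSG 280 and 1.12, 2.04 and 2.36 at S 280.

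Other replication genes were also higher, by different amounts. Cdc6, which loads the helicase onto origins, had 2.27, 2.95 and 3.72 at S 280, where its pool signal was well above background on 4 of 12 arrays. It passed the filter on dim probes in S groups alone. At RSG 280 the pool was not well above background on any array and the treated livers were on 2 of 12, so that no fold is given there, although it was called higher (limma adjusted p = 0.00752). At RSG 28 and S 84 the pool was below that level on every array too, and only bounds hold: at least 1.07-fold higher at RSG 28 (limma adjusted p = 0.000254) and at least 1.43-fold at S 84 (adjusted p = 2.48e-06). The bounds use processed signals per channel after quantile normalization of array brightness, with dyes balanced within each mouse. A second Cdc6 probe was not called at RSG 280 (0.17, limma adjusted p = 0.648) or S 28 (0.19, adjusted p = 0.596). It was called higher at RSG 28 (adjusted p = 0.0331), S 84 (adjusted p = 0.0345) and S 280 (2.71, adjusted p = 3.5e-10). Rrm1 and Rrm2 are the subunits of ribonucleotide reductase, which makes deoxyribonucleotides. Rrm1 had -0.06, 0.32 and 0.69 at RSG 280 and 1.00, 1.79 and 2.14 at S 280, and Rrm2 had -0.89, 0.21 and 0.90 at RSG 280 and 1.19, 2.06 and 3.11 at S 280. Tyms, thymidylate synthase, rose less but in all 6 liver groups. It had -0.02, 0.41 and 0.57 at RSG 280 and 0.77, 1.12 and 1.58 at S 280. Tyms had 3 probes. A second probe did not show this rise, with means of -0.05 at RSG 280 and -0.01 at S 280, and was not called in any liver group. The third probe did, with 0.38 at RSG 280 (limma adjusted p = 0.000179) and 1.12 at S 280 (adjusted p = 7.1e-14). Pcna, the sliding clamp of the polymerases, had -0.02, 0.16 and 0.29 at RSG 280 and 0.45, 1.05 and 1.68 at S 280, and rose in liver under S at 84 and 280 µmol/kg alone. Cdc45, a helicase partner carried as Cdc45l, averaged 0.095 at RSG 280 (limma adjusted p = 0.671) and 1.61 at S 280 (adjusted p = 6.55e-10).

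The G2 and mitosis genes varied more from mouse to mouse at RSG 280. Ccnb1, cyclin B1, had -1.70, 0.69 and 1.27 there, a mean of 0.18 ± 1.23 (limma adjusted p = 0.721), and 1.37, 2.75 and 3.26 at S 280, a mean of 2.55 ± 0.75 (5.84-fold, adjusted p = 7.25e-07). Its pool signal was well above background on 2 of 12 arrays at RSG 280 and 3 of 12 at S 280. Cdk1, the kinase that cyclin B activates, had -1.0, 0.35 and 0.91 at RSG 280 and 1.25, 2.03 and 2.45 at S 280. Top2a, which untangles replicated chromosomes, had -1.92, 0.84 and 1.08 at RSG 280 and 1.73, 2.21 and 2.88 at S 280. Mki67, the source of the Ki-67 antigen that marks dividing cells, had -1.64, 0.61 and 1.06 at RSG 280 and 1.33, 1.54 and 2.35 at S 280 (mean 1.65, 3.14-fold). For each of these 4 genes the lowest RSG 280 value was that of replicate 2. Bub1, a checkpoint kinase, was not well above background on any pool array of the S 280 group and was at least 2.28-fold higher there (adjusted p = 8.79e-08). It passed the filter on dim probes at S 280 alone, as did Kif11. The remaining 12 genes of this group had means between -0.10 (Birc5, survivin) and 0.36 (Aurkb) at RSG 280, and between 1.01 (Kif11, a spindle motor) and 2.04 (Cdc20, an activator of the anaphase-promoting complex) at S 280.

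Of the G1 genes, Ccnd1, cyclin D1, had 0.01, 0.71 and 1.25 at RSG 280, a mean of 0.70 ± 0.47 (1.62-fold, limma adjusted p = 0.00322), and 1.35, 2.22 and 2.93 at S 280, a mean of 2.22 ± 0.56 (4.66-fold, adjusted p = 7.66e-12). It rose in all 6 liver groups. Ccnd2, cyclin D2, did so too, with means from 0.14 to 0.25. Ccne2, cyclin E2, was not well above background on any pool array of the S 280 group and was at least 2.7-fold higher than the pool there (adjusted p = 8.72e-10). It passed the filter on dim probes in S groups alone. At RSG 280 it was not well above background on any treated array and was not called. Ccne1 had -0.11, -0.04 and 0.25 at RSG 280 and 0.45, 0.80 and 1.40 at S 280. The CDK inhibitor Cdkn1a, or p21, which halts the cycle, rose in all 6 liver groups beside the cyclins. Its means were 1.69 ± 0.38, 1.11 ± 0.40 and 0.63 ± 0.72 at RSG 28, 84 and 280, and 1.22 ± 0.48, 1.01 ± 0.97 and 2.30 ± 0.61 at S 28, 84 and 280. The inhibitor Cdkn2c, or p18, fell in 5 of the 6 groups, by 0.21 to 0.32. It had -0.41, -0.31 and 0.26 at RSG 280 and -0.10, 0.05 and 0.17 at S 280, where it was not called.

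The pair of Gadd45 genes, which respond to stress and whose products bind Pcna and p21, went opposite ways in liver. Gadd45b had 0.88, 1.48 and 1.92 at RSG 280 and 1.45, 2.23 and 3.88 at S 280, and rose in all 6 groups, with means between 0.85 and 2.43. Gadd45a had -0.50, -0.28 and -0.10 at RSG 280, a mean of -0.28 ± 0.18 (limma adjusted p = 0.00624), and -1.0, -0.85 and -0.41 at S 280, a mean of -0.77 ± 0.24 (adjusted p = 1.26e-09). It fell in 5 of the 6 liver groups and was not called at RSG 84 (-0.06).

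**Figure D2:**
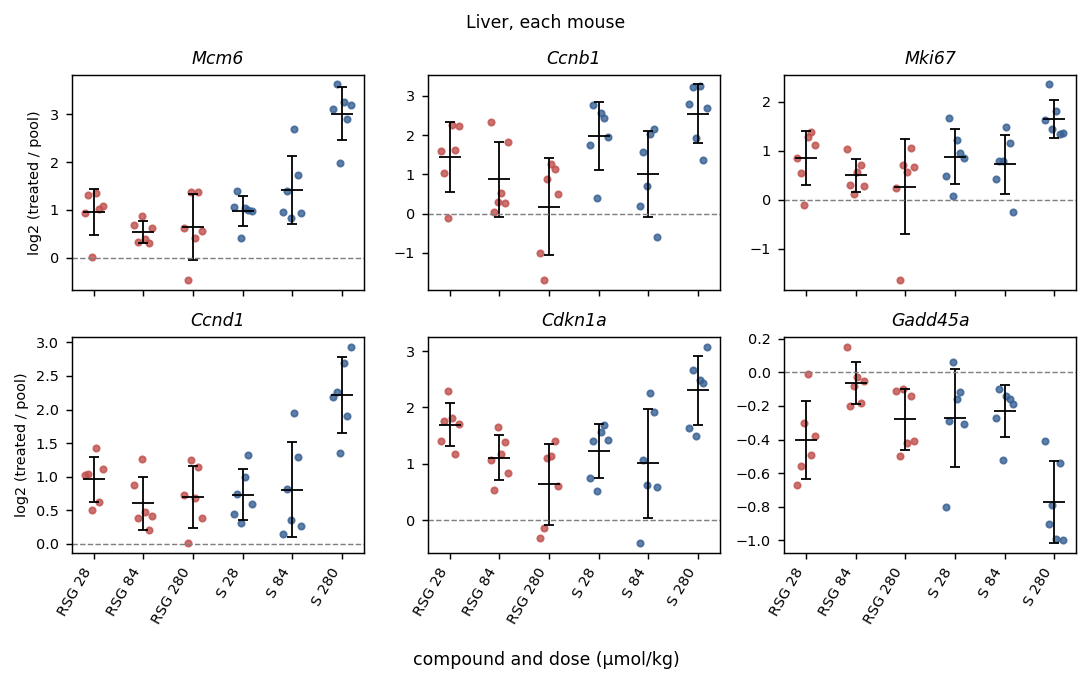
Log2 ratio to the pool in each of 6 livers per group for 6 genes (points; bars show the mean and SD; dose in µmol/kg; each gene has its own vertical scale). The S 280 points of Mcm6 lie between 1.99 and 3.63, above all RSG 280 points, and those of Gadd45a lie between -1.0 and -0.41.

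The 2 compounds were next compared with each other at matched molar doses in the liver, a contrast in which the pool cancels. At 28 µmol/kg none of the 36 genes was called between RSG and S (0.868% of all probes were called), and 1 reached an unadjusted p under 0.05. The difference RSG minus S had 95% confidence intervals of -0.63 to 0.58 for Mcm6 and -0.72 to 0.66 for Mki67, so that differences of those sizes remain possible. At 84 µmol/kg 1 gene, Cdc6, was called, lower under RSG than under S (adjusted p = 0.0392, 1.73% of all probes called). Cdc6 passed the filter on dim probes in S groups alone, and none of the 30 genes not dim in the pool was called. Cdc6 was not well above background on any RSG array there and on 6 of 12 S arrays, so no fold is given, and the call was kept under the replicate block and lost under the other 7 ways of processing tried. It was also lost without RSG 84 replicate 1, 2, 4 or 6 and without S 84 replicate 2, 4 or 5. At 280 µmol/kg 34 genes were lower and 1, Gadd45a, was higher in RSG-treated than in S-treated livers, against 13.8% of all probes in either direction. The median difference was -1.53, against 0.03 over all probes, and only Ccnd2 was not called. The 34 include Bub1, Kif11, Cdc6 and Ccne2, which were tested because of S groups. Over the 30 genes not dim in the pool, 28 were lower and 1 higher under RSG, with a median of -1.49. All RSG livers lay below all S livers for 30 of the 36 genes, Bub1, Cdc6 and Ccne2 among them. No such share over all probes is given for comparison.

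By size, Mcm6 had a mean of 0.64 in RSG livers and 3.01 in S livers at 280 µmol/kg, a difference of -2.37 ± 0.30 (SE; 5.17-fold lower under RSG, limma adjusted p = 3.48e-07). Ccnb1 averaged 0.18 under RSG and 2.55 under S, a difference of -2.36 ± 0.55 (adjusted p = 0.0013). It was well above background on 5 of 12 RSG arrays and 12 of 12 S arrays, so the size of this difference is uncertain. Its further probes averaged 0.20 and 0.36 under RSG, and 2.03 and 1.89 under S. Rrm2 differed by -1.95 ± 0.33. Cdc6 was called lower too, but was well above background on 2 of 12 RSG arrays, against 12 of 12 S arrays, so that the size of its difference is uncertain. The smallest p belonged to Rrm1, with 0.33 under RSG and 1.73 under S (-1.40 ± 0.16, adjusted p = 1.23e-07), and Mcm7, with 0.30 and 1.96 (-1.66 ± 0.20, adjusted p = 1.34e-07), followed. Pcna averaged 0.14 under RSG and 1.05 under S, a smaller difference of -0.91 ± 0.12. Ccne2 was not well above background on any RSG 280 array and was at least 2.32-fold higher in S livers (adjusted p = 2.44e-05). Cdkn1a had 0.63 under RSG and 2.30 under S, and thus differed in the same direction as the cyclins (-1.67 ± 0.35, adjusted p = 0.000477). Gadd45a had -0.28 under RSG and -0.77 under S (0.49 ± 0.12, adjusted p = 0.00213).

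Scan days were unevenly spread over the groups. On the 1 day that scanned livers of both groups at 280 µmol/kg (2 mice each), 34 of 36 genes were lower under RSG, with a median difference of -0.94. The differences there were -2.07 for Mcm6, -1.32 for Rrm1, -1.22 for Ccnb1 and 0.49 for Gadd45a. With scan day as a fixed term 15 genes were called, all lower under RSG, with a median of -1.14. The structure of S is not given in the labels, so the compounds cannot be compared by structure.

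**Figure D3:**
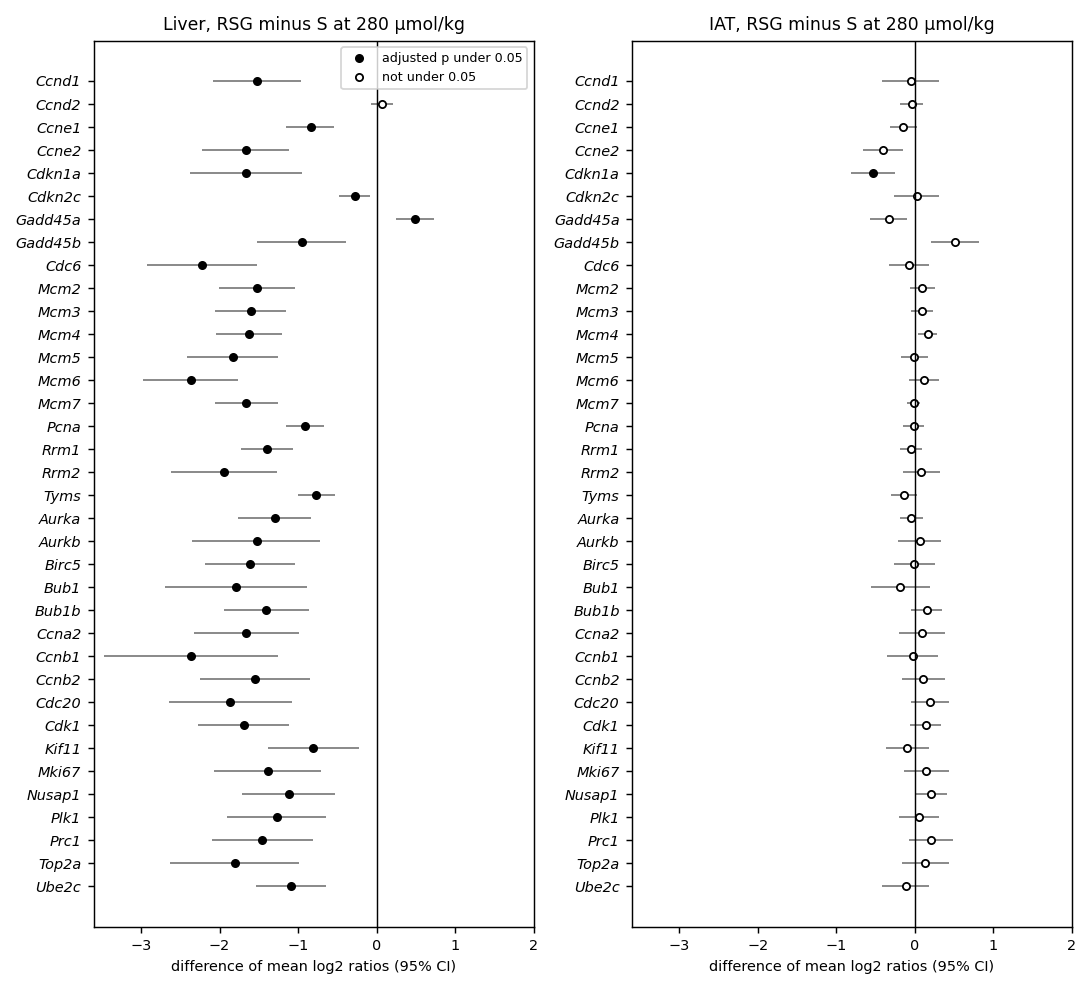
Difference between RSG and S at 280 µmol/kg (mean log2 ratio of RSG minus that of S) for 36 genes in liver (left) and IAT (right), with 95% confidence intervals; filled points have an adjusted p under 0.05. In liver 34 genes lie below 0 with filled points and Gadd45a above, while in IAT 1 point, Cdkn1a at -0.53, is filled.

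Between the highest and the lowest dose, the liver gave many calls for S and none for RSG. For S, 28 genes were higher and 1, Gadd45a, lower at 280 than at 28 µmol/kg (all probes: 12.6% higher, 15.9% lower), with a median of 1.03. All 11 replication genes rose, and 11 of 17 G2 and mitosis genes. Over the 30 genes not dim in the pool, which leave out those tested because of S groups, 24 were higher and 1 lower. They included all 10 replication genes and 9 of 13 G2 and mitosis genes as higher. Mcm6 averaged 3.01 at S 280 and 0.98 at S 28 (2.04 ± 0.30, limma adjusted p = 3.1e-06), and Cdc6 was called higher as well (adjusted p = 4.64e-06), with 12 of 12 arrays well above background at S 280 and 4 of 12 at S 28. Pcna, which had the smallest p, averaged 1.05 at S 280 and 0.14 at S 28, and Ccnd1 2.22 and 0.74. For 16 genes, Bub1, Cdc6 and Ccne2 among them, all S 280 livers lay above all S 28 livers. No such share over all probes is given here. The S 280 and S 28 livers shared no scan day, and with scan day as a fixed term 3 genes were called with a median of 0.69. For RSG, none of the 36 genes was called between 280 and 28 µmol/kg (0.0115% of all probes), 8 reached an unadjusted p under 0.05, and the median was -0.33. Whether the dose response differed between the compounds was not tested.

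The other genes of the pathway were counted in lists of 4 functions that overlap with the 36 genes. In liver a list gene was tested if it passed the filter on dim probes in any 1 group. Genes that passed through S groups alone could therefore enter these counts, which raises the share higher under S. No count over the list genes detected in the pool is given. For reading these counts, 21.4% of all probes rose and 29.5% fell at RSG 280, and 27.9% rose and 37.9% fell at S 280. Of 42 DNA replication and repair synthesis genes 17 rose and 5 fell at RSG 280, and 39 rose and none fell at S 280, with medians of 0.18 and 1.21. Of 49 mitotic spindle and chromosome segregation genes 8 rose and 3 fell at RSG 280, and 46 rose and 1 fell at S 280, with medians of 0.21 and 1.68. Between RSG and S at 280 µmol/kg, 41 of the 42 replication genes and 44 of the 49 mitotic genes were lower under RSG. In that contrast 13.8% of all probes were lower. Of 39 genes of G1 and S phase control, 10 rose and 9 fell at RSG 280, and 24 rose and 6 fell at S 280. Of 29 p53 target genes 5 rose and 10 fell at RSG 280, and 17 rose and 3 fell at S 280. At RSG 280 the shares of G1 and S phase genes (25.6% higher, 23.1% lower) and of p53 targets (17.2% higher, 34.5% lower) were near those of all probes. Several members went against the direction more common among the called genes of their list at RSG 280. For G1 and S phase control the called genes were almost evenly split, with 10 higher and 9 lower. Tk1, thymidine kinase, averaged -0.65 at RSG 280 and -0.15 at S 280, where it was not called. Cdca2, a chromatin protein of mitosis, fell at both, to -0.28 at RSG 280 and -0.69 at S 280. Rbl2, a pocket protein that represses E2F targets in resting cells, fell to -0.39 at RSG 280 and -0.60 at S 280. Btg2, an antiproliferative p53 target, rose to 1.06 at RSG 280, where more p53 targets fell than rose, and to 1.23 at S 280, where most rose.

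Markers of other cells and of hepatocytes were counted against the same shares of all probes, 21.4% higher and 29.5% lower at RSG 280 and 27.9% and 37.9% at S 280. At RSG 280, 9 of 15 hepatocyte markers fell and 3 rose (median -0.44, per-mouse medians -0.55 to -0.10), and at S 280, 12 fell and 2 rose (median -0.61, per-mouse medians -0.77 to -0.46). Macrophage markers rose for 10 of 19 at RSG 280 and for 6 at S 280, where 2 fell, with per-mouse medians of -0.08 to 0.80 and -0.19 to 0.79. T and natural killer cell markers fell for 1 of 10 at RSG 280 and 6 of 10 at S 280. Endothelial markers rose for 13 of 14 at RSG 280 and 9 of 14 at S 280. Fibroblast markers rose for 5 of 14 in either group and fell for 2 at RSG 280 and 7 at S 280. Epithelial markers rose for 4 of 14 at RSG 280 and 10 at S 280. All 15 skeletal muscle markers tested fell in both groups. Of 20 such markers 15 were detected in the liver pool and 9 in treated livers, so markers bright in the pool alone could enter the test. Of 11 adipocyte markers 8 rose at RSG 280 and 7 at S 280. B cell markers rose for 5 of 10 at RSG 280 and 3 at S 280, and neutrophil markers for 3 of 7 at RSG 280 and 2 at S 280. Erythroid markers fell for 3 of 7 at RSG 280 and 2 at S 280. For macrophage, B cell and neutrophil markers at S 280 the shares that rose, 31.6%, 30% and 28.6%, were near that of all probes. The part of any of these cells in the cell cycle values was not tested.

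In IAT the cell cycle genes moved less and mostly downward. At RSG 280, 18 fell and 7 rose (limma, adjusted p under 0.05), with a median of -0.24, while 29.8% of all tested probes fell and 36.5% rose. At S 280, 21 fell and 8 rose, with a median of -0.28 against 0.06 over all probes, while 32.1% of all probes fell and 42% rose. Of the 17 G2 and mitosis genes 10 fell at RSG 280 and 12 at S 280, and none rose in any IAT group by the brightest probe. Top2a is uncertain here. Its brightest probe averaged 0.08 at RSG 28 and -0.22 at RSG 280, whereas a second probe was higher than the pool by 1.06 at RSG 28, 0.64 at RSG 84, 0.74 at S 28 and 0.75 at S 84 (limma adjusted p = 0.000429, 0.0166, 0.00991 and 0.0071), and had 0.37 at RSG 280 and 0.17 at S 280, where it was not called. Of the 11 replication genes 6 fell and 3 rose at RSG 280, and 7 fell and 3 rose at S 280. Of the 6 G1 genes 4 rose at either compound, and 1, Ccnd1, fell.

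Lower doses gave fewer calls. At RSG 28, 4 genes fell and 3 rose, with a median of -0.02 (all probes: 19.3% lower, 27% higher), and 12 genes were called without replicate 1. At RSG 84, 17 fell and 5 rose, with a median of -0.20 (all probes: 27.2% lower, 37.9% higher). At S 28, 8 fell and 6 rose, with a median of -0.06 (all probes: 19% lower, 27.9% higher), and 7 were called without replicate 1. At S 84, 11 fell and 5 rose, with a median of -0.08 (all probes: 22.3% lower, 32.7% higher).

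Mcm6 fell in all 6 IAT groups. It had -0.84, -0.55 and -0.40 in the lowest, median and highest mouse at RSG 280 and -0.86, -0.72 and -0.43 at S 280, with means of -0.57 ± 0.15 and -0.69 ± 0.16 (SD, n = 6 each; 1.49-fold and 1.62-fold lower than the pool, limma adjusted p = 5.15e-09 and 6.38e-11). Mcm3 was lower in 5 groups, with -0.43, -0.32 and -0.15 at RSG 280 and -0.50, -0.40 and -0.26 at S 280. Not all helicase genes fell. Mcm2 averaged -0.07 at RSG 280, where it was not called, and -0.16 at S 280. Mcm7 went both ways by small amounts, at -0.10 at S 28, 0.09 at RSG 280 and 0.10 at S 280, and Rrm1 likewise averaged -0.14 at S 28 and 0.12 at S 280. Tyms rose in all 6 groups, with -0.14, 0.31 and 0.36 at RSG 280 and 0.24, 0.37 and 0.50 at S 280.

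Among the mitosis genes, Mki67, Ccna2 and the checkpoint kinase Bub1b fell in all 6 groups. Mki67 had -0.84, -0.53 and -0.36 at RSG 280 and -0.91, -0.76 and -0.41 at S 280, so that all 12 mice were below the pool. Ccna2, cyclin A2, had -0.99, -0.51 and -0.16 at RSG 280 and -0.70, -0.65 and -0.52 at S 280. Bub1b had -0.80, -0.49 and -0.23 at RSG 280 and -0.93, -0.58 and -0.49 at S 280. Aurkb, the kinase of the chromosomal passenger complex, averaged -0.61 ± 0.30 at RSG 280 and -0.67 ± 0.12 at S 280, and fell in 4 groups together with Cdk1, which averaged -0.44 ± 0.19 and -0.58 ± 0.15. Nusap1, a spindle protein, fell in 5 groups, with means of -0.30 at RSG 280 and -0.51 at S 280. Ccnb1, Aurka, Bub1 and Ube2c were not called in any IAT group.

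Of the genes that rose, 4 of 7 at RSG 280 and 4 of 8 at S 280 were of G1. Cdkn1a rose in all 6 groups, with mice at 0.22, 0.90 and 1.21 at RSG 280 and 1.28, 1.30 and 1.65 at S 280, and means of 0.87 ± 0.36 (1.82-fold, adjusted p = 3.21e-09) and 1.40 ± 0.17 (2.64-fold, adjusted p = 4.3e-14). Ccne1 also rose in all 6, with 0.18, 0.49 and 0.60 at RSG 280 and 0.35, 0.61 and 0.73 at S 280. Ccne2 had -0.07, 0.49 and 0.54 at RSG 280 and 0.49, 0.68 and 1.37 at S 280, and Cdkn2c averaged 0.28 and 0.26. These 2 genes were called in 5 groups each. Ccnd1 behaved differently, at -0.84, -0.59 and -0.30 at RSG 280 and -1.11, -0.48 and 0.05 at S 280, where the highest mouse was not below the pool. Gadd45b, which rose throughout the liver, fell in 4 IAT groups. It had -0.94, -0.86 and -0.14 at RSG 280 and -1.57, -1.27 and -0.80 at S 280 (means -0.72 ± 0.32 and -1.23 ± 0.31). Gadd45a was called in IAT at S 280 alone, where it rose to 0.44 ± 0.25.

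**Figure D4:**
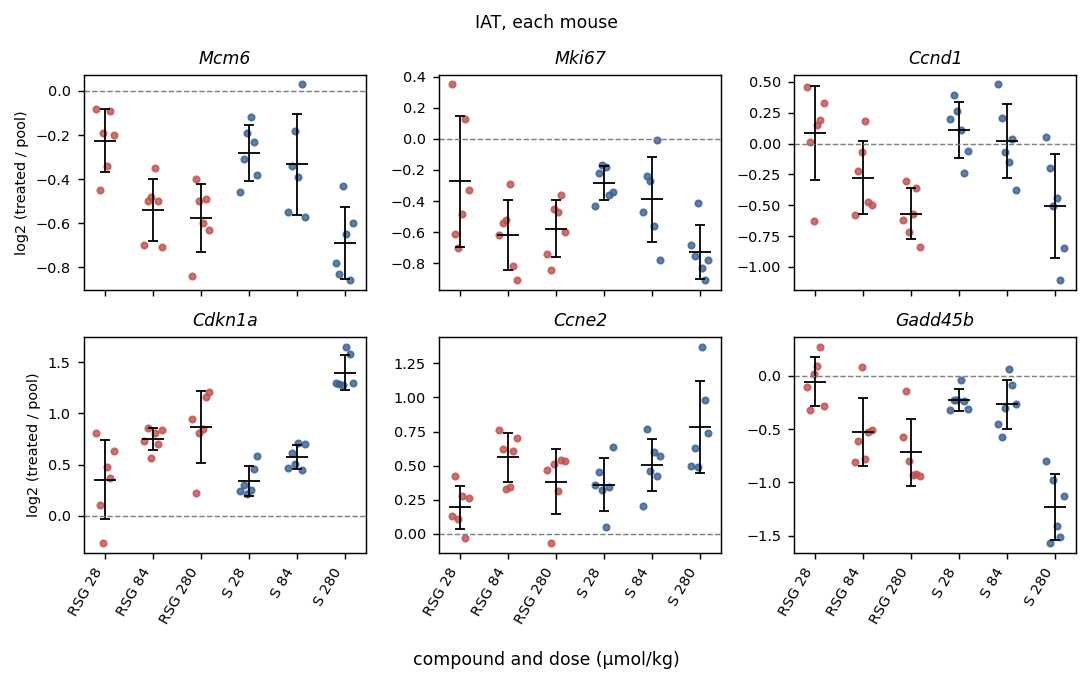
Log2 ratio to the pool in each of 6 IAT samples per group for 6 genes (points; bars show the mean and SD; dose in µmol/kg; each gene has its own vertical scale). All RSG 280 and S 280 points of Mcm6 and Mki67 lie below 0, while the S 280 points of Cdkn1a lie between 1.28 and 1.65, above all RSG 280 points.

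Few of the genes separated RSG from S in IAT. No gene was called between them at 28 µmol/kg (0.00636% of all probes) or at 84 µmol/kg (2.11% of all probes), and 3 reached an unadjusted p under 0.05 at either dose. At 280 µmol/kg 1 gene, Cdkn1a, was called (1.46% of all probes), with means of 0.87 under RSG and 1.40 under S, and the mice of the 2 groups did not overlap. The difference was -0.53 with a 95% confidence interval of -0.81 to -0.25. The call was lost without RSG 280 replicate 2, 3 or 4 and without S 280 replicate 1, 4, 5 or 6. It was also lost with normexp background correction, the authors' own ratios, no filter on dim probes and slide as a block. Without RSG 280 replicate 5 or S 280 replicate 3, 3 genes were called. For Mki67 the difference at 280 µmol/kg had an interval of -0.14 to 0.44, and for Ccnd1 of -0.42 to 0.31. The 2 groups shared no scan day in IAT.

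Between the highest and the lowest dose, more of the genes were lower than higher in IAT. For RSG 11 genes were lower and 1, Cdkn1a, higher at 280 than at 28 µmol/kg (all probes: 11.5% lower, 13.4% higher), with a median of -0.19. For S 13 were lower and 6 higher (all probes: 16.8% lower, 25.9% higher), with a median of -0.20. Gadd45b averaged -0.72 at RSG 280 and -0.05 at RSG 28, a difference of -0.66 ± 0.15, and -1.23 at S 280 and -0.23 at S 28, a difference of -1.0 ± 0.15 (limma adjusted p = 2.25e-06). Cdkn1a averaged 1.40 at S 280 and 0.34 at S 28 (1.06 ± 0.14, adjusted p = 2.37e-07), and all S 280 mice lay above all S 28 mice. Mcm6 differed by -0.35 ± 0.09 for RSG and -0.41 ± 0.09 for S, Ccnd1 by -0.65 and -0.62, Pcna by -0.26 and -0.24, and Mcm4 by -0.18 and -0.29. Ccne1 was higher at S 280 than at S 28 by 0.32, Mcm7 by 0.20 and Rrm1 by 0.25. The groups of both contrasts shared no scan day. For RSG, no gene was called with scan day as a fixed term and the median was then 0.20, and 7 were called without RSG 280 replicate 1 or 3.

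The wider lists in IAT are read against 29.8% of all probes lower and 36.5% higher at RSG 280, and 32.1% lower and 42% higher at S 280. Of these lists, 22 of 55 mitotic genes fell and 8 rose at RSG 280, and 30 fell and 9 rose at S 280, with medians of -0.18 and -0.22. The 42 replication and repair synthesis genes were divided, with 17 lower and 12 higher at RSG 280 and 16 lower and 16 higher at S 280. Of 39 G1 and S phase genes 11 fell and 12 rose at RSG 280, and 13 fell and 12 rose at S 280, shares near those of all probes. Of 30 p53 targets 11 fell and 5 rose at RSG 280, and 14 fell and 11 rose at S 280. Cdc25a, the phosphatase that activates Cdk2, rose to 0.87 at RSG 280 and 1.22 at S 280, and Cdkn2b, or p15, to 0.77 and 1.03. Gins1, a helicase partner, rose to 0.54 and 0.78, while Nek2, a centrosome kinase, fell to -0.56 and -0.49. Pmaip1, the p53 target Noxa, fell to -1.51 at RSG 280 and -1.37 at S 280.

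Markers of several other cell types in IAT fell more often than all probes, of which 29.8% fell at RSG 280 and 32.1% at S 280, and others did not. Fibroblast markers fell for 12 of 14 at RSG 280 and 14 of 14 at S 280, macrophage markers for 13 of 20 at either, and endothelial markers for 9 of 14 at RSG 280 and 11 at S 280. Epithelial markers fell for 10 of 19 at RSG 280 (per-mouse medians -2.82 to 0.31) and 14 at S 280 (-3.71 to -0.14). Skeletal muscle markers fell for 14 of 20 at RSG 280 (per-mouse medians -3.39 to 0.50) and 17 at S 280 (-3.66 to -1.74). T and natural killer cell markers fell for 4 of 18 and rose for 3 at RSG 280, and fell for 12 and rose for 4 at S 280. B cell markers fell for 2 of 11 and rose for 2 at RSG 280, and fell for 7 and rose for 2 at S 280. Neutrophil markers fell for 3 of 11 and rose for 1 at RSG 280, and fell for 4 and rose for 2 at S 280. The shares of these 3 lists that fell at RSG 280, 22.2%, 18.2% and 27.3%, were below that of all probes. Adipocyte markers fell for 4 of 13 at either compound and rose for 6 at RSG 280 and 8 at S 280. Hepatocyte markers fell for 3 of 13 at either and rose for 2 at RSG 280 and 4 at S 280, and erythroid markers rose for 5 of 8 at either. Epithelium and muscle can reach an inguinal dissection, and the markers of both were detected in the pool. Their part in the values of the cell cycle genes was not tested.

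The tissues were then compared at the highest dose, each by its ratio to its own pool, so that a difference between the pools enters the contrast, and with the samples of the tissues fitted as independent although they share animals. For S, 33 of the 36 genes were lower and 1, Gadd45a, higher in IAT than in liver (of 25528 probes tested in both: 25.8% lower, 47.1% higher), with a median of -2.05 against 0.16 over all probes. Ccnd2 and Cdkn2c were not called. Mcm6 averaged -0.69 in IAT and 3.01 in liver, a difference of -3.71 ± 0.22 (SE, limma adjusted p = 1.01e-22). Gadd45b averaged -1.23 in IAT and 2.43 in liver, a difference of -3.67 ± 0.23, and Cdc6 by -3.29 ± 0.26, with its liver pool well above background on 4 of 12 arrays. Mcm4, with the smallest p, averaged -0.35 in IAT and 2.34 in liver (-2.69 ± 0.15, adjusted p = 1.08e-23). For Cdkn1a, which rose in both tissues, the difference was -0.90 ± 0.27. For 30 genes all IAT mice lay below all livers, with no such share over all probes given. The 33 lower genes include Bub1, Kif11, Cdc6 and Ccne2, which were tested in liver because of S groups.

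For RSG, 15 genes were lower and 3 higher in IAT than in liver (all probes: 21.9% lower, 38.6% higher), with a median of -0.46 against 0.11 over all probes. Gadd45b averaged -0.72 in IAT and 1.48 in liver (-2.20 ± 0.23, adjusted p = 7.85e-13), and Ccnd1 -0.57 and 0.70 (-1.26 ± 0.23). Mcm6 differed by -1.22 and Mcm2 by -1.06. The 3 higher genes were Cdkn2c (0.51), Ccne1 (0.42) and Gadd45a (0.38). Without the liver of RSG 280 replicate 2, 26 genes were lower and 3 higher. With the liver and IAT of the same number in a group as a random block, 21 genes were lower and 3 higher for RSG, and the counts for S were unchanged.

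**Figure D5:**
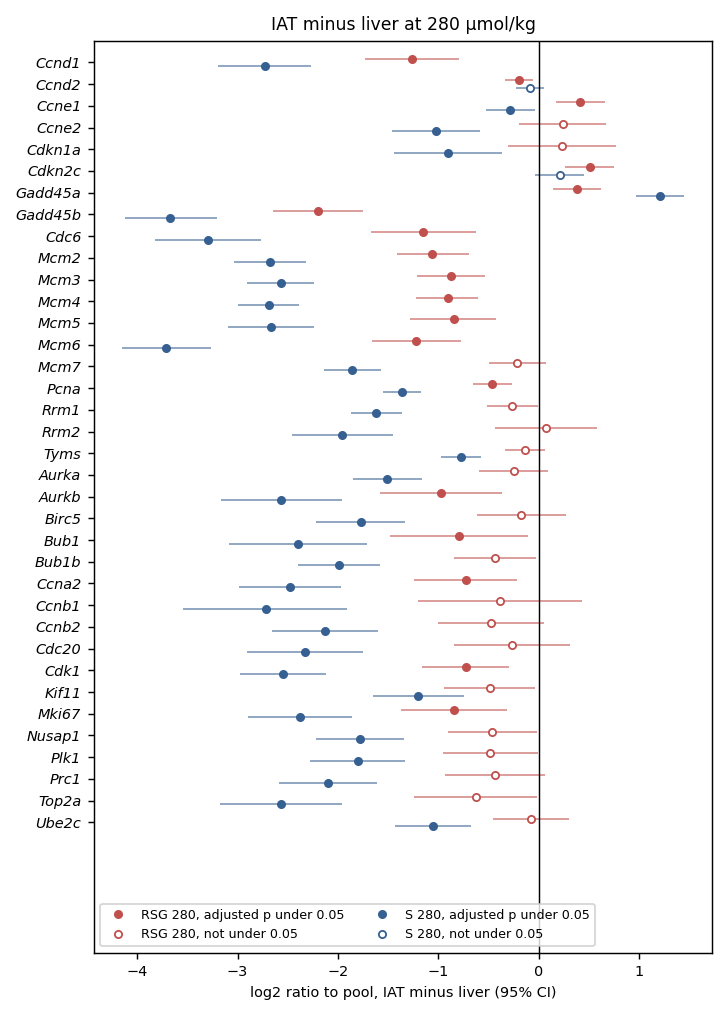
Difference of the mean log2 ratio to the pool, IAT minus liver, at 280 µmol/kg for 36 genes under RSG (red) and S (blue), with 95% confidence intervals; filled points have an adjusted p under 0.05. Under S, Mcm6 lies at -3.71 and Gadd45a at 1.21, and under RSG the points lie nearer to 0, with Gadd45b lowest at -2.20.

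Repeated arrays gave a measure of technical spread. For each of 2 liver groups, 6 further samples are labelled as technical replicates, and the labels do not say which RNA was repeated. The median SD over the 36 genes was 0.087 between the repeats and 0.45 between mice at RSG 28, and 0.085 and 0.39 at S 28. For 35 of 36 genes in either group the SD between mice was the larger. For 3 genes at RSG 28 and 2 at S 28 all 6 repeats lay outside the range of the 6 mice. Gadd45a at RSG 28 was 1 of them, with repeats between -1.23 and -1.16 and mice between -0.67 and -0.01.

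The genes were also measured by 14 further tested probes, in 162 pairs of probe and comparison with the pool. Both probes were called in 88 pairs, always in the same direction, the brightest probe alone in 25, the further probe alone in 7 and neither in 42. The probes differed by more than 0.5 in 21 pairs, which belonged to Top2a in IAT, to Ccnb1, Cdc6 and Tyms in liver, and to Gadd45b at S 280 in both tissues. For Ccnb1 at S 280 the further probes gave 2.03 and 1.89, against 2.55 for the brightest.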

How the data were processed

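RNA of 72 tissue samples, 36 from each tissue, was hybridised with the control pool on a pair of 2-colour Agilent arrays with exchanged dyes, and 12 further liver samples are labelled technical replicates, giving 84 samples and 168 arrays. Agilent Feature Extraction 9.5 is named in the submitters' processing notes, and the methods state local background subtraction and local Lowess dye normalization. The authors deposited scanner tables with a log10 ratio of red over green per spot, and the intensity of each channel as processed and raw signals. The series' value table, deposited by the authors with 1 log10 ratio per probe and sample, served as an alternative after conversion to log2. Of its 84 columns, 80 correlated with their own arrays at over 0.98. The columns of IAT S 280 replicates 4 to 6 matched each other's arrays best, and that of IAT S 84 replicate 6 correlated at 0.012 with its own.

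The deposited log10 ratios were turned to log2 of treated over pool, then averaged, first over the dye pair (outlier-flagged spots left out) and next over replicate spots. Before turning, the arrays of a pair correlated at -0.951 to -0.639. The treated channel was well above background for 43.4 to 65.8% of probes in liver and 61.8 to 78.2% in IAT. The number of mice, 6 in each group, limits the precision. In both liver groups with repeated arrays, the spread between mice was the larger for 35 of 36 genes. A probe was tested where the treated or pool channel was well above background on at least 50% of a group's arrays. The limma package (3.58.1, R 4.3.3) was used, with the 36 mice of a tissue in 1 fit, empirical Bayes variances and Benjamini-Hochberg adjustment over all tested probes of the tissue, and a call was an adjusted p under 0.05. For IAT against liver, both tissues entered 1 fit as independent samples. The procedure was tested on simulated data. Since control mice were pooled into 1 sample, p-values against the pool leave out the spread of controls. Symbols of 23483 probes were updated by RefSeq accession, which changed 4888.

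The 38 names and the gene lists were chosen with earlier results of these data known. Values by mouse are given for up to 14 genes per tissue called in most of the 6 groups, for up to 12 called in each comparison between groups by smallest p, and for genes called in opposite directions within a tissue. Of each list, up to 4 genes with the smallest p at RSG 280 could be named and 1 against the direction more common among its called genes. In liver Mki67, Top2a, Ccnb1, Rrm2, Bub1 and the extremes of the other mitosis genes were added after their values were seen. Alternatives were normexp (offset 50) with loess, the authors' table, no filter on dim probes, scan day or slide as a random block, the replicate number as a block, the mean over a gene's probes and leaving out each mouse. Scan day as a fixed term, values within a scan day, the number shared by both tissues as a random block and the authors' table less 1 column were added after seeing the data.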

Additional observations from a re-analysis of the deposited data

Results flagged for a closer look

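In 12 groups of 6 mice, 180 sets of 6 values were examined, each of 1 gene or of the median over the 36 genes in 1 group. In 19 of them 1 mouse stood far from the others, where about 9 are expected by chance, and the same mice recur across genes. In liver, replicate 3 of RSG 28 was low for Mcm4 (0.27), Mcm3 (0.08), Mcm6 (0.02) and Mcm5 (0.12). Replicate 2 of liver RSG 280 was low for Mcm2 (-0.24), Mcm4 (-0.19), Tyms (-0.02), Ccnd2 (-0.01) and Mcm5 (-1.05), and high for Cdkn2c (0.26). Replicate 2 of liver S 28 was high for Cdc6 (1.38; the pool was well above background on 1 of 12 arrays), and replicate 3 of liver S 280 was low for Mcm5 (1.78). The median over the 36 genes was high in replicate 1 of liver RSG 84 (0.76). In IAT, replicate 3 of RSG 84 was high for Gadd45b (0.08), and replicate 2 of RSG 280 was low for Tyms (-0.14) and Ccne2 (-0.07). Replicate 1 of IAT S 28 was low for Bub1b (-0.58), replicate 4 of S 28 was high for Gadd45b (-0.04), and the median over the 36 genes was low in replicate 5 of S 280 (-0.35).

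The effect of a compound differed between the tissues for 24 pairs of gene and compound named here, by the limma test of IAT against liver. Under RSG at 280 µmol/kg the differences were -2.2 for Gadd45b, -0.91 for Mcm4, -1.06 for Mcm2, -1.22 for Mcm6, -1.26 for Ccnd1 and -0.88 for Mcm3. They were -0.46 for Pcna, -1.15 for Cdc6 (no liver pool array well above background), -0.85 for Mcm5 and -0.73 for Cdk1, and above 0 for Cdkn2c (0.51) and Ccne1 (0.42). Under S at 280 µmol/kg they were -2.69 for Mcm4, -3.71 for Mcm6, -3.67 for Gadd45b, -2.57 for Mcm3, -2.68 for Mcm2 and -1.36 for Pcna. They were -1.86 for Mcm7, -1.62 for Rrm1, -3.29 for Cdc6, -2.67 for Mcm5, -2.55 for Cdk1 and -2.73 for Ccnd1. Each tissue was set against its own pool, so a difference between the pools cannot be told apart from a difference in the response.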

How the results depend on the processing

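Of 422 called values of the 36 genes, the replicate block kept 419, the mean over probes 410, the authors' own ratios 412, scan day as a random block 402, no filter 400, normexp with loess 397 and slide as a block 389, with no sign turned. Replicate numbers were not taken to pair mice of different groups. Same-numbered mice of different groups correlated at -0.27 to 0.48 in liver (44 of 90 pairs over 0.1) and -0.51 to 0.68 in IAT (47 of 90). Liver and IAT samples of the same group and number correlated at -0.14 to 0.35 (median 0.13, 21 of 36 pairs over 0.1). Those of the same group and other numbers correlated at -0.30 to 0.33 (median -0.02, 14 of 180 pairs over 0.1). As a random block, the number shared by both tissues gave 24 calls for IAT against liver under RSG (18 in the report) and 34 under S. With the replicate block, 1 gene was called between RSG and S in liver at 84 µmol/kg and 35 at 280 µmol/kg. For liver RSG against S at 84 µmol/kg the count of 1 became 0 under normexp, the authors' table, no filter, either block of scan day, slide and the mean over probes. For IAT RSG against S at 84 µmol/kg the authors' table gave 1, and 0 without its column of S 84 replicate 6. At 280 µmol/kg in IAT, normexp, the authors' table, no filter and slide gave 0, and the random block of scan day gave 5. Scan day as a fixed term gave 15 for liver RSG against S at 280 µmol/kg, 3 for liver S 280 against 28 and 0 for IAT RSG 280 against 28, where Cdk1 (0.19) and Aurkb (0.09) turned sign and slide as a block gave 6. The cause was not tested. Splits of higher and lower calls moved to 5 and 3 for IAT RSG 28 (mean over probes, 3 and 4 in the report), to 5 and 13 (normexp) or 6 and 13 (scan day) for IAT S 28 (6 and 8), and to 5 and 6 for IAT S 84 (authors' table, 5 and 11), or 5 and 8 without the column of replicate 6, which did not match its arrays.

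Leaving out 1 mouse gave 26 to 32, 11 to 15 and 9 to 24 calls for liver RSG 28, 84 and 280, and 25 to 32, 20 to 35 and 34 to 35 for liver S. In IAT it gave 5 to 12, 18 to 25 and 22 to 28 for RSG, and 7 to 13, 12 to 19 and 26 to 29 for S. Between RSG and S it gave 0 to 0, 0 to 1 and 33 to 35 in liver, and 0 to 0, 0 to 0 and 0 to 3 in IAT. Between 280 and 28 µmol/kg it gave 0 to 0 for RSG and 23 to 30 for S in liver, and 7 to 13 and 16 to 20 in IAT. For IAT against liver it gave 16 to 29 for RSG and 33 to 34 for S. Dim signals in the liver pool limit the size of the changes of 6 genes.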
